A study of Mus musculus with 2 samples.

Results

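A gate on 5 genes was used to find nuclei that resemble granule neurons of the dentate gyrus. A nucleus was chosen when it held no UMI (unique molecular identifier, 1 counted RNA molecule) of Slc17a6, at least 1 of Prox1, at least 1 of either Itpka or Neurod2, and none of Neurod6, while Gad1 was left free. The gate chose 161 of 38150 nuclei, called members here, of which 145 were among the 21777 nuclei of the injury library and 16 among the 16373 nuclei of the sham library. The label of these nuclei, dentate-like Prox1 neurons, describes part of them. Of the 145 injury members, 80 fell into a pair of subclusters with 3 dentate granule list genes each among their 10 leading genes. The pair was nearly free of called doublets, and 65 members lay elsewhere. The list and the subclusters were chosen with these counts known, so this placement is a description and not a test of the label.

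The study measured single-nucleus RNA of the thalamus on the operated side, in sham-operated mice and in mice with cortical ablation injury (CAI), a surgical removal of sensory and motor cortex. Both groups were female C57BL/6J mice aged 3 months, collected on day 21. Each group was 1 library of nuclei pooled from 4 mice, so the injury and the library cannot be told apart, no difference has a replicate check, and no test was run. Intervals are given at 95% throughout, and they reflect counting error alone. The median depth was 7190 UMIs per sham nucleus and 6810 per injury nucleus, and 7274 per injury member. The libraries shared 101 cell barcodes, 1 of them carried by an injury member, which was granule-like.

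Granule neurons are the main excitatory cells of the dentate gyrus, a part of the hippocampal formation and not of the thalamus. Their axons, the mossy fibres, release glutamate loaded by the transporter VGLUT1 (Slc17a7), and they keep the homeobox factor Prox1 for life, while thalamic relay neurons load glutamate with VGLUT2 (Slc17a6). Granule neurons are also known to hold the GABA-making enzyme GAD67 (Gad1), although they are glutamatergic. Itpka, an inositol trisphosphate kinase, and Neurod2, a basic helix-loop-helix transcription factor, are broadly used by forebrain excitatory neurons, and Neurod6 marks pyramidal neurons of the cortex and hippocampus.

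Other glutamatergic nuclei of the injury library served as the contrast. VGLUT2 nuclei held at least 1 Slc17a6 UMI and no Gad2 UMI (8652 nuclei, median 9783.5 UMIs). Prox1 is not particular to the members. In the sham library, which is not the source of this contrast class, 4325 of 8134 VGLUT2 nuclei (53.2%) held a Prox1 UMI. Neurod6 nuclei held no Slc17a6 UMI and at least 1 UMI each of Neurod6 and Slc17a7 (123 nuclei, median 12116 UMIs). GABAergic nuclei (584), gated on Slc32a1, and oligodendrocyte nuclei (1590), gated on Mog and Mobp, were used to read stray RNA. Both classes were also gated on no Slc17a6 UMI, which removes nuclei with stray thalamic RNA, and they leave out the members.

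To ask what the gate had collected, all nuclei were clustered with the gate genes left out of the features. Of the 145 injury members, 96 lay in cluster 20, which held 511 injury nuclei and no sham nucleus. The absence from 16373 sham nuclei allows a share of up to 0.0183% as a limit of 3 counts, or 0.0225% as the upper Clopper-Pearson bound. The other 49 were spread over 14 clusters, with at most 12 in any of them. Absence from the sham library was not particular to cluster 20. Cluster 21, with 395 injury nuclei and 5 members, held no sham nucleus either. The 16 sham members lay in 6 clusters and none was in cluster 20.

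**Figure D1:**
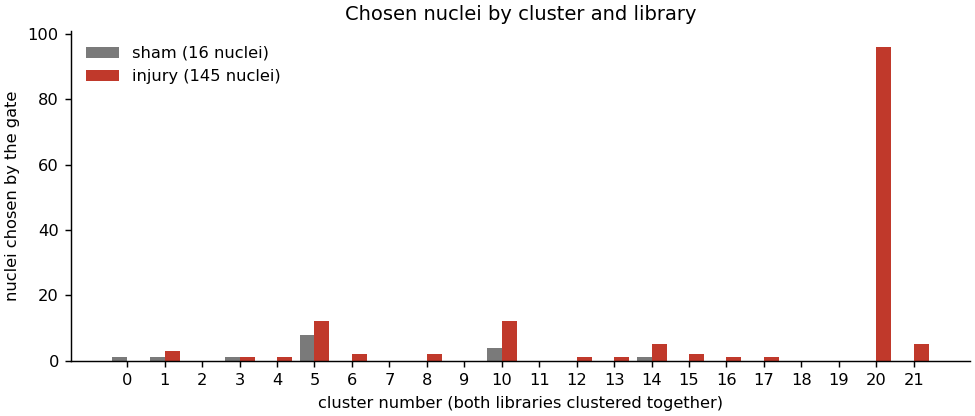
Number of nuclei chosen by the gate (vertical axis) in each of 22 clusters (horizontal axis), for the sham library (grey) and the injury library (red). Cluster 20 held 96 of the 145 injury members and none of the 16 sham members.

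Cluster 20 was itself clustered. Subclusters 0 (70 nuclei) and 6 (111 nuclei) held 40 members each, and their leading genes over the rest of the injury nuclei included Dsp, Stra6, Lct, Npnt, Gpc4 and Plekha2. Subclusters with at least 20 members were called granule-like, a limit set after the values were seen. These 2 hold 181 nuclei, 80 of them members. Of the other 101, 51 had no Prox1 UMI and 79 none of Itpka or Neurod2. Only 3 of the 101 carried a Slc17a6 UMI and none carried Neurod6. Their median depth was 4429 UMIs, against 6199.5 for the 80 granule-like members.

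Pyramidal genes were found in other subclusters of cluster 20. In subclusters 1 and 5, 81.7% and 73.2% of nuclei had a UMI of Mpped1, a CA1 pyramidal gene, and in subcluster 2, 90.1% had a UMI of Nectin3, listed for CA3 pyramidal neurons. In the granule-like subclusters 0 and 6, Mpped1 was found in 1.43% and 0% of nuclei and Nectin3 in 2.86% and 4.5%. Subcluster 8 (20 nuclei, 6 members) also had Plekha2, Dsp and Gpc4 among its leading genes and Glis3 in 100% of nuclei, but all 20 were called doublets, and it fell under the limit of 20 members. Subcluster 4 (14 nuclei, 4 members) had Glis3 in 50% and the oligodendrocyte gene Mobp in 64.3% of nuclei, with 10 called doublets. Of the 16 members of cluster 20 outside subclusters 0 and 6, 13 were called doublets.

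**Figure D2:**
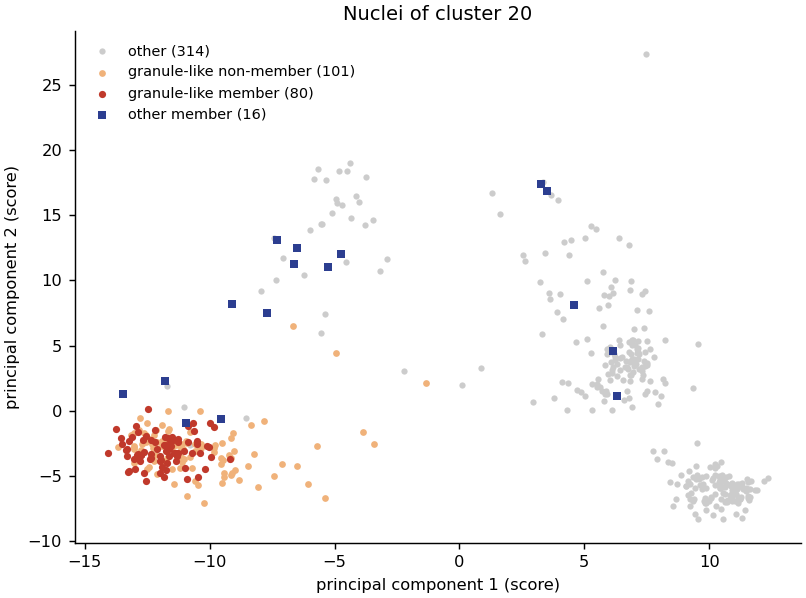
The 511 nuclei of cluster 20 on their first and second principal components (scores, no unit). The 80 granule-like members (red) and 101 granule-like non-members (orange) occupy the same area at the lower left, while the 16 other members (blue squares) are scattered and the remaining 314 nuclei (grey) lie mostly to the right.

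Counts near the limits of the gate were as follows. Of the 145 injury members, 58 held exactly 1 Prox1 UMI and 90 exactly 1 UMI of Itpka and Neurod2, and 38 were at both limits. Glis3 UMIs were found in 19 of these 38, and 16 of them were granule-like. Just outside, 39 injury nuclei met the gate but for 1 Slc17a6 UMI, of which 1 was granule-like, and 7 met it but for Neurod6, of which none was. Of 2709 nuclei that missed only Itpka and Neurod2, 48 were granule-like, and of 320 that missed only Prox1, 20 were.

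Genes of the dentate granule list, 21 genes outside the gate, were examined first. The list and the granule-like nuclei were chosen with these counts known, and clusters are drawn from the same genes, so the values describe these nuclei. A gene was called higher or lower past a 2-fold ratio of CPM (a gene's summed UMIs in a class, scaled to 1000000 UMIs of that class) with an interval on 1 side of 0, among genes with a mean of at least 10 CPM. In all injury members, 14 of the 17 listed genes that could be compared were higher than in VGLUT2 nuclei, where 7.14% of all 9370 genes compared were higher. Against Neurod6 nuclei 15 of 17 were higher, with 12.3% of 8990 genes higher. In the 80 granule-like members the counts were 16 of 17 over VGLUT2 nuclei (11.7% of all genes higher) and 15 of 17 over Neurod6 nuclei (11.0%). No listed gene was called lower in any of these comparisons. The filter used the mean of both classes compared. A listed gene near 0 in the contrast class, such as Dsp, therefore entered only through the members and could only be called higher. Listed genes low in both classes, such as C1ql2, were not compared. The filter thus helps set these counts.

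The median log2 ratio of the list was 3.19 over VGLUT2 nuclei in all injury members, 3.94 in the granule-like members and 1.68 in the other members. The median over all genes compared was -0.01 for all injury members and -0.09 for the granule-like ones. Over Neurod6 nuclei the list's median was 3.03 in all injury members and 3.92 in granule-like members. Over 20 of the 21 genes it was 2.64 and 3.48, with 2 that had no Neurod6-nucleus UMI set to a floor of 3 UMIs. The gene left out had at most 3 UMIs in both classes. A granule-like member carried a median of 12 of the 21 genes (range 7 to 19), against 5 in VGLUT2 nuclei, 5 in Neurod6 nuclei and 5 in members outside cluster 20. The 16 members elsewhere in cluster 20, mostly called doublets, carried 13. After thinning to 2000 UMIs per nucleus the medians were 8 in granule-like members, 2 in VGLUT2 nuclei, 2 in Neurod6 nuclei and 3 in members outside cluster 20.

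Genes of the cell junction, the matrix and the membrane came first. Dsp, the desmosome protein desmoplakin (chromosome 13, 38151294 to 38198577, GRCm38), had 56 UMIs in 31 of the 80 granule-like members, with 49 nuclei at 0, 18 at 1, 6 at 2 and 7 at 3 to 5. Its level was 104 CPM (78.5 to 135) in granule-like members, 12.5 in other members, 0.474 in VGLUT2 nuclei and 0.614 in Neurod6 nuclei. The log2 ratio of granule-like members was 7.77 (7.19 to 8.37) over VGLUT2 nuclei and 7.40 (4.87 to 12.73) over Neurod6 nuclei, the latter resting on 1 UMI. The 101 granule-like nuclei outside the gate stood at 104.6 CPM. Dsp UMIs were found in 4 of the 16 members elsewhere in cluster 20 and in none of the 49 outside it.

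Lct, the enzyme lactase (chromosome 1, 128284756 to 128328318), was higher over both classes too. It had 47 UMIs in 38 of 80 granule-like members and 87.2 CPM (64.04 to 116), against 0.247 in VGLUT2 nuclei and 13.5 in Neurod6 nuclei. The log2 ratios were 8.46 (7.72 to 9.23) and 2.69 (1.93 to 3.49). Npnt, the matrix protein nephronectin, had 81.6 CPM in granule-like members and 2.09 in VGLUT2 nuclei, a log2 ratio of 5.28 (4.78 to 5.76). Plekha2, a membrane adaptor, had 121 and 1.76, a log2 ratio of 6.10 (5.66 to 6.52).

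Since Dsp and Lct stood out among listed genes and Prox1 defines the gate, the 250 bases before their starts are shown, 5′ to 3′ on the gene's strand, from RefSeq on GRCm38.p6. Neurod2 and its relatives bind E-boxes such as CAGATG, which was searched on both strands (CAGATG and CATCTG) and is in capitals where found.
Dsp, chr13:38151044-38151293, plus strand: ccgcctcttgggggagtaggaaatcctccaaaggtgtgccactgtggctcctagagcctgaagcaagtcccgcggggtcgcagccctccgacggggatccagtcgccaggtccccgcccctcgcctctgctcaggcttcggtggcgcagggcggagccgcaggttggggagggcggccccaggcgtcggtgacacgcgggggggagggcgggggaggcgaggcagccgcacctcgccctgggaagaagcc
Lct, chr1:128328319-128328568, minus strand: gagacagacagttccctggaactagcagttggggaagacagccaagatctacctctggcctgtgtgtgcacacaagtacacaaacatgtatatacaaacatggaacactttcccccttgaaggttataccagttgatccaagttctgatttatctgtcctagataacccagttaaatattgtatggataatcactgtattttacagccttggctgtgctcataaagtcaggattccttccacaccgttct
Prox1, chr1:190170828-190171077, minus strand: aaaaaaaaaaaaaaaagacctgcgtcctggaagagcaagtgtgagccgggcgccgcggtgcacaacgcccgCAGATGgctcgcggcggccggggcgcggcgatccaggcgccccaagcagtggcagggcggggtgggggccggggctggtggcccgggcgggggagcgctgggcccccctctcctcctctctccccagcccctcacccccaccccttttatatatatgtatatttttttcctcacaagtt
The motif occurred 1 time in the Prox1 window shown and not before Dsp or Lct. RefSeq gives a second Prox1 start, whose window (chr1:190169516-190169765) holds no match, and 14.4% of 32851 windows of this length hold it. The match is a description of the sequence and says nothing about binding.

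Transcription factors of the list followed. Glis3, a zinc finger factor, was detected in 75 of 80, with a median of 4 UMIs and a highest value of 19, and stood at 797 CPM (724 to 876) against 26.8 in VGLUT2 and 11.04 in Neurod6 nuclei. Its log2 ratios were 4.90 (4.75 to 5.04) and 6.17 (5.50 to 6.94). Rfx3, a factor of ciliary genes, had 2246 CPM and log2 ratios of 3.91 (3.82 to 3.99) and 3.41 (3.24 to 3.59). Zbtb20, which is needed for hippocampal development, was present in all 80 at 9 to 96 UMIs per nucleus, 5372 CPM. It separated granule-like members from VGLUT2 nuclei (320 CPM, log2 ratio 4.07) and by less than 2-fold from Neurod6 nuclei (3857, log2 ratio 0.48). Bcl11b, known as Ctip2, gave the same pattern, with log2 ratios of 4.79 (4.56 to 5.02) and 0.87 (0.59 to 1.14).

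**Figure D3:**
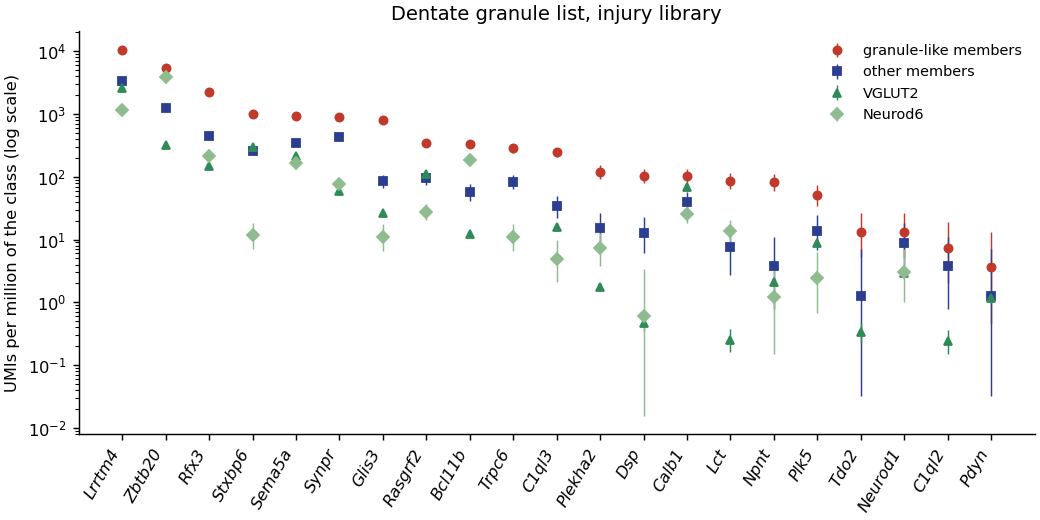
CPM (log axis) of the 21 dentate granule genes in the summed nuclei of 4 classes of the injury library, with exact Poisson 95% intervals, genes ordered by their level in granule-like members and genes without a UMI left out. Granule-like members (red) lie above VGLUT2 nuclei for every gene, while other members (blue) lie between them for most, as for Dsp at 104, 12.5 and 0.474.

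C1ql3, a secreted C1q-like synapse organiser, was found in 51 of 80 granule-like members with up to 12 UMIs, and its level of 245 CPM compares with 16 in VGLUT2 nuclei (log2 ratio 3.94, 3.67 to 4.20) and 4.91 in Neurod6 nuclei (5.64, 4.62 to 6.88). Its relative C1ql2 was sparse, with 4 UMIs in 4 of the 80 nuclei and 25.6 CPM in granule-like non-members. Lrrtm4, a postsynaptic adhesion protein, had log2 ratios of 2.0 (1.96 to 2.04) and 3.16 (3.08 to 3.23). Synpr, the vesicle protein synaptoporin, had 3.93 (3.79 to 4.06) and 3.56 (3.27 to 3.85). Stxbp6, a SNARE-binding protein, had 1.73 (1.61 to 1.86) over VGLUT2 nuclei and a larger ratio over Neurod6 nuclei (6.41, 5.75 to 7.15). Trpc6, a cation channel, had 4.58 (4.32 to 4.82) and 4.68 (3.97 to 5.48).

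The other genes of the list were less distinct or thinly counted. Rasgrf2, a Ras exchange factor and 1 of the markers given for these nuclei, was found in 57 of 80 granule-like members (341 CPM) and had log2 ratios of 1.62 (1.40 to 1.83) and 3.63 (3.15 to 4.13). In the 65 other members it stood at 95.3 CPM, against 111 in VGLUT2 nuclei. Calb1, the calcium buffer calbindin, was called higher over Neurod6 nuclei (2.02) and not over VGLUT2 nuclei (0.55, 0.14 to 0.94). Tdo2 (7 UMIs), Neurod1 (7) and Pdyn (2), the dynorphin precursor, were too low to compare, as was C1ql2.

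The largest ratios over VGLUT2 nuclei, ranked by the bound nearest to 0, mixed genes of granule-like and of other members. Stra6, a retinol transporter, had a log2 ratio of 6.72 in all injury members and 7.99 (7.27 to 8.73) in granule-like ones. Gpc4, a heparan sulfate proteoglycan, had 6.14 and 7.20 (6.77 to 7.61). Il16 and Olfml2b were high over VGLUT2 nuclei (6.39 and 6.27 in granule-like members) and not called over Neurod6 nuclei (0.92 and 0.52). Kcng1, a modifier of potassium channels, had 5.87 and 3.01. Col6a3 and Dlx6os1, the latter of the GABAergic identity list, were at 0 UMIs in granule-like members and at 48.9 and 70.2 CPM in the other members. Among the highest genes over Neurod6 nuclei were Ptchd4 and Dock10, with log2 ratios of 5.89 (5.36 to 6.47) and 4.69 (4.30 to 5.10). Kirrel3, an adhesion protein of the immunoglobulin family, had 4.82 over Neurod6 nuclei and 0.87 over VGLUT2 nuclei.

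Thalamic genes were lower in granule-like members than in VGLUT2 nuclei. The VGLUT2 class required Slc17a6, the transporter gene of thalamic relay neurons, and the members had none by the gate. Values of thalamic genes over this class are therefore in part set by the gates. Of the 10 genes of the thalamic list that could be compared, 10 were lower than in VGLUT2 nuclei, where 15.4% of all 9184 genes compared were lower. In all injury members 9 of 10 were lower, with 6.00% of genes lower. Tcf7l2, a Wnt pathway factor of thalamic neurons, was found in 7 of 80 granule-like members, each with 1 UMI, and in 84.3% of VGLUT2 nuclei, at 13.0 against 585 CPM (log2 ratio -5.49, -6.81 to -4.45). Lef1 (-6.82), Synpo2 (-5.86) and Prkcd (-4.90) were also low, and Rora (-2.05) and Ntng1 (-2.20) were lower by less, at 651 and 701 CPM. The median of the list over VGLUT2 nuclei was -1.89 in all injury members, -3.89 in granule-like members and -1.31 in other members. With genes at 0 set to a floor of 3 UMIs the first and second were -1.76 and -3.40. Over Neurod6 nuclei 8 of 9 were higher in all injury members and none lower (12.3% and 4.13% of all genes), while in granule-like members 2 of 8 were higher, Ntng1 and Lhx9, and 3 lower (11.0% and 7.70%). The medians were 1.87 in all injury members and -0.37 in granule-like members (2.12 and -1.06 over the genes with counts in both classes or at the floor). Gbx2 was at 0 UMIs in all 145.

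Forebrain factors were counted next, and 2 of 3 compared were higher than in VGLUT2 nuclei (11.7% of all genes). Nfix and Zbtb18 were called higher over VGLUT2 nuclei, at log2 ratios of 4.18 (3.82 to 4.52) and 4.02 (3.49 to 4.52), and neither was called over Neurod6 nuclei. Emx1, Emx2 and Bhlhe22 had 4 to 6 UMIs each.

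Pyramidal genes that could be compared were lower in granule-like members than in Neurod6 nuclei. Neurod6 marks pyramidal neurons, and it was required in this class and excluded from the members. These values are therefore in part set by the gates. Of the CA3 list, 3 of 3 genes compared were lower in granule-like members, with 7.70% of 8657 genes lower, and 3 of 3 were lower in all injury members (4.13% lower). Grik4, a kainate receptor subunit, stood at 161 against 826 CPM (log2 ratio -2.36, -2.69 to -2.04), and Nectin3, an adhesion protein, at 5.56 against 171 (-4.94, -7.23 to -3.38). Of the CA1 list, Man1a, a mannosidase, had 1 UMI in granule-like members (1.85 against 278 CPM, log2 ratio -7.23, -12.53 to -4.74). The protein kinase gene Prkca was lower than in Neurod6 nuclei (-1.34, -1.50 to -1.19) and higher than in VGLUT2 nuclei (2.85).

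Transmitter genes were read beside each other, Gad1 being free in the gate. Slc17a7 (chromosome 7, 45163949 to 45176142) was found in 83 of 145 injury members (57.2%, 48.8 to 65.4) and in 55 of the 80 granule-like members (68.75%, 57.4 to 78.7), 18 of them with 1 UMI, 17 with 2 and 20 with 3 to 5. Its level in granule-like members was 243 CPM (203 to 288), against 26.1 in VGLUT2 nuclei (log2 ratio 3.22, 2.96 to 3.47) and 282 in Neurod6 nuclei, where the gate required it. It was found in 18.6% of VGLUT2, 3.08% of GABAergic and 1.82% of oligodendrocyte nuclei. Slc17a6 was 0 by the gate. Slc30a3, which loads zinc into the vesicles of mossy fibres, had 44.5 CPM, with log2 ratios of 3.89 (3.22 to 4.49) and 1.54 (0.67 to 2.40).

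Gad1 (chromosome 2, 70553072 to 70602014) was found in 37 of the 145 injury members (25.5%, 18.6 to 33.4). The share was close to this in granule-like members (20 of 80, 25%, 16 to 35.9) and in other members (17 of 65, 26.2%, 16.03 to 38.5), but what came with it differed. In granule-like members 12 nuclei held 1 Gad1 UMI, 3 held 2 and 5 held 3, and Gad2, the gene of the second GABA-making enzyme, had 2 UMIs in all. Of the 20 nuclei with Gad1, 17 also held Slc17a7, 1 held Gad2 and 0 were called doublets. Slc32a1, the vesicular GABA transporter, had 0 UMIs in the 80 nuclei, which allows a share of nuclei with a UMI of up to 3.75% (3 counts of 80) and does not bound the share that expressed it. In the other members 13 of 17 nuclei with Gad1 also held Gad2, 4 held Slc17a7 and their median depth was 18659 UMIs.

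The ratio of Gad2 to Gad1 was then compared between classes. There were 0.0606 Gad2 UMIs per Gad1 UMI (0.00705 to 0.237) in granule-like members and 0.100 (0.0113 to 0.412) in granule-like non-members. The ratio was 1.69 (1.56 to 1.84) in GABAergic nuclei, 1.29 (1.06 to 1.56) in oligodendrocyte nuclei and 1.90 (1.21 to 3.04) in members outside cluster 20. In all 145 injury members together it was 0.929 (0.652 to 1.32), an average over these unlike nuclei.

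Stray RNA was read from classes that should lack Gad1. The VGLUT2 class was gated on no Gad2 UMI, which also removes nuclei with stray GABAergic RNA, so its Gad1 values and the ratio over it are in part set by the gate, while the Neurod6 nuclei and the subclusters of cluster 20 were not gated on Gad2. A Gad1 UMI was found in 2.32% of VGLUT2 nuclei (2.02 to 2.66), in 2.44% of Neurod6 nuclei (0.506 to 6.96) and in 4.65% of oligodendrocyte nuclei (3.67 to 5.81, median depth 2064.5 UMIs). Inside cluster 20, the 3 subclusters without members held 218 nuclei with a median of 10290.5 UMIs, and 3 of them carried Gad1 (1.38%, 0.285 to 3.97). The level was 61.2 CPM (42.1 to 85.9) in granule-like members, 42.7 in granule-like non-members, 1.24 (0.256 to 3.63) in those 3 subclusters, 2.45 (0.669 to 6.28) in Neurod6 nuclei and 2.79 in VGLUT2 nuclei, a log2 ratio over VGLUT2 nuclei of 4.45 (3.88 to 4.98). In oligodendrocyte nuclei the level was 39.5 CPM (34.03 to 45.5), near that of the granule-like nuclei, and came with 1.29 Gad2 UMIs per Gad1 UMI. Of the 74 oligodendrocyte nuclei with Gad1, 18 were not called doublets, among 1388 nuclei of the class not called doublets. Nuclei of the class with Gad1 had a median depth of 8689 UMIs, against 2025 in those without it. Called doublets thus enter this level and the 4.65%, and the part of stray RNA in them was not tested. At 2000 UMIs per nucleus 13.75% of granule-like members (7.07 to 23.3) and 0.563% of VGLUT2 nuclei still held Gad1. The median depth was 7041 UMIs in granule-like members with Gad1 and 6106.5 in those without.

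Slc17a7 and Gad1 shared a nucleus in 21 of 145 injury members (14.5%, 9.19 to 21.3), 17 of them granule-like. Among granule-like members Gad1 was found in 17 of 55 with Slc17a7 (30.9%, 19.1 to 44.8; median depth 6675 UMIs) and in 3 of 25 without it (12%, 2.55 to 31.2; median 5565 UMIs), shares whose intervals overlap. In granule-like non-members Gad1 was found in 8 of 46 nuclei with Slc17a7 (17.4%) and in 8 of 55 without it (14.5%). Slc17a7 and Gad1 were found together in 0.520% of VGLUT2 nuclei and 2.44% of Neurod6 nuclei. Abat, the GABA-degrading enzyme, was lower in granule-like members, at 31.5 CPM against 80.6 in VGLUT2 nuclei (log2 ratio -1.35, -2.13 to -0.67). Of 11 GABAergic identity genes, 9 were at 0 UMIs in granule-like members, Dlx1 and Otx2 having 1 UMI each. The list summed to 3.71 CPM in granule-like members, 4.57 in VGLUT2 nuclei and 4.91 in Neurod6 nuclei. These low counts therefore do not set the classes apart.

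**Figure D4:**
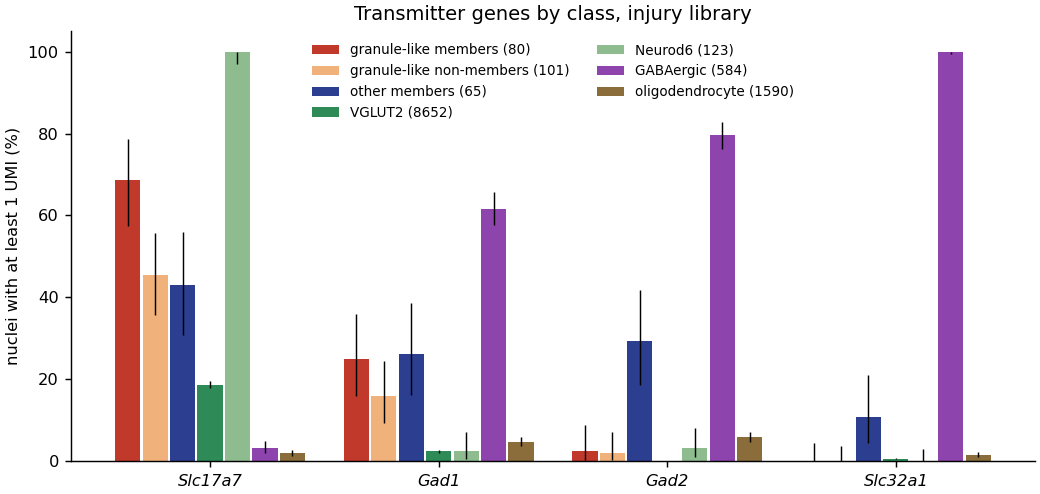
Share of nuclei with at least 1 UMI (vertical axis, %) of Slc17a7, Gad1, Gad2 and Slc32a1 in 7 classes of the injury library, with exact binomial 95% intervals and the number of nuclei in brackets. Slc17a7 in Neurod6 nuclei, Slc32a1 in GABAergic nuclei and Gad2 in VGLUT2 nuclei are set by the gates. Granule-like members reach 25% for Gad1 and 2.50% for Gad2, and other members 26.2% and 29.2%.

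Receptor and signalling genes were compared next. Of 8 calcium and plasticity enzymes, 7 were higher than in VGLUT2 nuclei, where 11.7% of all genes were. Over Neurod6 nuclei 1 was higher and 2 lower, with 11.0% and 7.70% of all genes. Nrgn, the calmodulin-binding protein neurogranin, had 178 CPM against 4.45 in VGLUT2 nuclei (log2 ratio 5.32, 4.99 to 5.64) and 79.2 in Neurod6 nuclei (1.17, 0.77 to 1.56). Ryr2, a calcium release channel, had 2.88 (2.79 to 2.97) over VGLUT2 nuclei and 0.49 over Neurod6 nuclei. Nr3c2, the mineralocorticoid receptor, had 2.96 (2.86 to 3.04) and 0.32.

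Of 15 ionotropic glutamate receptor genes, 4 were higher and 5 lower than in VGLUT2 nuclei, against 11.7% and 15.4% of all genes. Gria1 and Grin2a, AMPA and NMDA receptor subunits, were higher at 2.43 (2.37 to 2.49) and 2.46 (2.41 to 2.52), while Gria4 (-2.94, -3.27 to -2.63) and the kainate subunit Grik1 (-4.74, -6.06 to -3.70) were lower. Over Neurod6 nuclei 1 of 13 was higher (11.0% of all genes), Grik3 at 3.45 (2.54 to 4.46), and Grik4 was lower. Of 7 metabotropic receptor genes, 1 was higher and 3 lower (Grm3, Grm4 and Grm8) than in VGLUT2 nuclei, against 11.7% and 15.4% of all genes. The higher one, Grm2, had 2.28 (1.66 to 2.84) over VGLUT2 and 5.30 (3.30 to 8.42) over Neurod6 nuclei. Of 12 GABA-A subunits, 4 were higher and 3 lower than in VGLUT2 nuclei (11.7% and 15.4% of all genes), with Gabra5 at 1.90 (1.57 to 2.21) and Gabrg3 at -3.31 (-3.75 to -2.89). Gabrd, the delta subunit, was higher over Neurod6 nuclei (2.40, 1.05 to 3.86) and not called over VGLUT2 nuclei (-0.68).

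Of the 14 listed immediate early genes, 8 were at 0 UMIs in granule-like members, and the list summed to 237 CPM, against 168 in VGLUT2 and 582 in Neurod6 nuclei. Against Neurod6 nuclei 4 of 6 were lower (7.70% of all genes), among them Homer1 (-1.42, -1.89 to -0.98) and Bdnf (-1.02, -1.71 to -0.39), and none was higher. Against VGLUT2 nuclei Bdnf (1.03, 0.39 to 1.61) and Inhba (1.81, 1.39 to 2.21) were higher and Nr4a1, at 1 UMI, was lower (-3.74, -9.04 to -1.26), of 4 compared and with 11.7% and 15.4% of all genes. Of 7 immature neuron genes, 3 compared gave 2 lower and none higher than in VGLUT2 nuclei (15.4% and 11.7% of all genes), and 1 compared with Neurod6 nuclei was not called. Dcx, a microtubule protein of young neurons, stood at 13.0 CPM, against 68.4 in VGLUT2 and 22.1 in Neurod6 nuclei, and Igfbpl1, Eomes, Draxin and Neurog2 at 0.

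**Figure D5:**
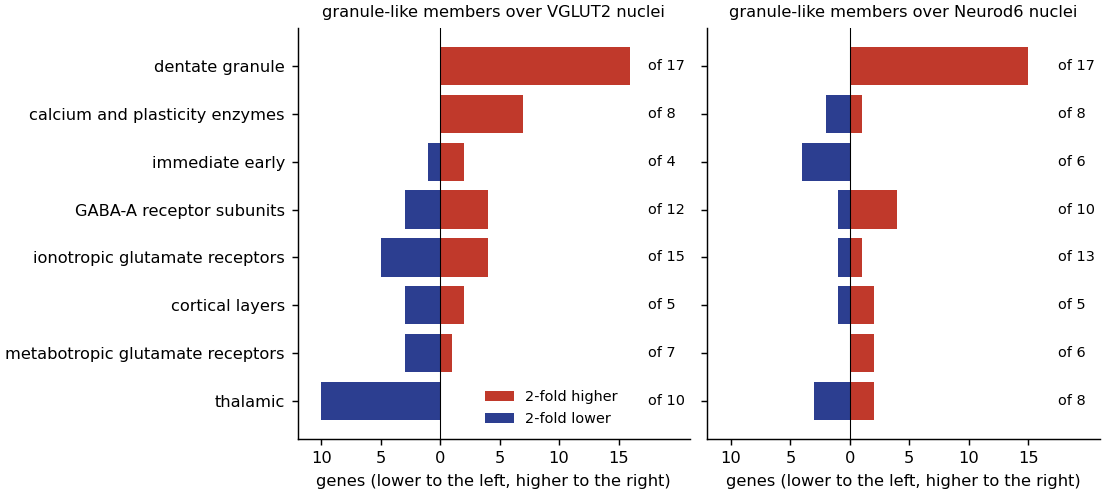
Number of genes of 8 lists called 2-fold higher (red, to the right) or lower (blue, to the left) in granule-like members over VGLUT2 nuclei (left panel) and over Neurod6 nuclei (right panel), with the number compared at the right edge. Dentate granule genes were higher in 16 of 17 and 15 of 17, and thalamic genes lower in 10 of 10 against VGLUT2 nuclei. These counts are in part set by the gates and by the filter on the mean CPM of both classes.

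The 65 members outside the granule-like subclusters were a mixture. Their median depth was 10082 UMIs and 31 were called doublets (47.7%), against 0 of the 80 granule-like members. Tcf7l2 was found in 39 (60%), up to 30 UMIs in a nucleus, Mog or Mobp in 18 (27.7%), Gad2 or Slc32a1 in 20 (30.8%), and the habenular genes Chat, Chrna3 or Chrnb4 in 15 (23.1%). Only 19 held none of these glial, GABAergic and habenular genes, against 73 of the 80 granule-like members. All 6 genes of the oligodendrocyte list were higher in the 145 injury members than in VGLUT2 nuclei, at 875 summed CPM against 170, with 7.14% of all genes higher. In granule-like members the sum was 347 and 1 of 4 genes compared was lower and 1 higher, St18 (2.56, 2.28 to 2.83; 15.4% and 11.7% of all genes), with Mog at 1 UMI. Over Neurod6 nuclei, which summed to 57.7 CPM, 2 of 3 genes were higher, Mbp and St18, and none lower (11.0% and 7.70% of all genes). The part of stray oligodendrocyte RNA in the granule-like values was not tested. Slc1a3, the glial glutamate transporter GLAST, was found in 16 of 80 granule-like members (50.1 against 5.71 CPM in VGLUT2 nuclei), with the other astrocyte markers Aqp4 at 3 UMIs, Gfap at 2 and Gja1 and Aldh1l1 at 0.

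The 16 sham members carried few granule genes. They made up 0.0977% of sham nuclei (0.0559 to 0.159), against 0.666% of injury nuclei (0.562 to 0.783), a ratio of 6.81 (4.06 to 12.2). None held a UMI of Dsp, Lct, C1ql2 or Stra6, and Glis3 was found in 1. A count of 0 in 16 nuclei allows a share of nuclei with a UMI of up to 20.6%. Of the 145 injury members, 35 held Dsp, 43 Lct, 27 Stra6 and only 7 C1ql2, so the absence of C1ql2 does not set the sham members apart. Tcf7l2 was found in 9 of 16, Gad2 or Slc32a1 in 3, and Chat, Chrna3 or Chrnb4 in 6. Slc17a7 was found in 4 and Gad1 in 1, a nucleus that also held Gad2 and 36849 UMIs. Zbtb20 stood at 444 CPM (339 to 570), against 2923 in injury members.

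Counting limits apply to some named genes. Gene models on the opposite strand overlap Prox1 (Prox1os), Gad1 (Gad1os), Stra6 (Ccdc33) and Zbtb20, and whether counting used the strand is not given in the sources used here, so reads of these pairs may not be separate. Counts are 3′ UMIs and are not scaled by gene length, so levels were compared between classes and not between genes.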

How the data were processed

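Nuclei were isolated from the thalamus of 2 pools of 4 mice, sham and CAI, and sequenced as droplet 3′ libraries. The authors aligned reads to GRCm38 (mm10) and counted UMIs with Cell Ranger 6.0.2, and per the submitters' processing notes used bcl2fastq and Seurat 4.0. The deposited tables hold raw counts of UMIs per gene and barcode. Whether introns or strand were used in counting is not given in the sources used here.

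Nuclei with 200 to 7500 genes and at most 2% mitochondrial UMIs were kept, which removed 17 sham and 51 injury barcodes. The kept nuclei held 137411540 sham and 178972911 injury UMIs. Doublets were called with Scrublet in scanpy 1.11.5 at 0.8% per 1000 nuclei (2179 sham, 3867 injury) and kept. Clustering used 2000 variable genes without the 5 gate genes, 30 components, 15 neighbours and Leiden resolution 0.5, with no integration, and was repeated inside the cluster that held most members. UMIs were summed per class and scaled to 1000000 per class (CPM). Intervals are exact Poisson for sums and Clopper-Pearson for shares and ratios. List medians add 0.5 UMI. Thinning used 2000 UMIs. TMM factors came from edgeR 4.0.16, used for scaling only. Scripts were tested on simulated data. Symbols were matched for 32158 gene rows through GENCODE M21, which also gave coordinates.

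The members and the 26 gene lists were chosen with earlier results of these data known. Named genes are list genes with at least 10 UMIs in injury members or defining markers near 0, and the 15 highest and 10 lowest over VGLUT2 and 10 of each over Neurod6 nuclei by interval bound, with unnamed gene models left out. A few list genes with fewer UMIs are named to account for a list. With 1 library per group no p-value was computed. Values of some list genes are not reported here.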

Additional observations from a re-analysis of the deposited data

How the results depend on the processing

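With 1 library per group no replicate could be left out, and depth limits sparse genes such as C1ql2 and Tdo2. No paired analysis was possible because sham and CAI were 1 pool apiece. Below, "dentate" and "thalamic" are list medians on the log2 scale, and counts are genes past 2-fold in all injury members (main values 1231 over VGLUT2 and 1481 over Neurod6 nuclei). The log2 ratio of Gad1 and the 3 list medians kept their sign under each of the 13 planned and 3 added alternatives that gave them a value, and not every alternative did. Gad2 per Gad1, 0.929 in all injury members, was on either side of 1 among the added ones. Under the planned ones 61 of 102 values stayed within their counting interval or, for counts of genes, within 1.5 times, and without a filter on nuclei or with Neurod6 left free every value did. For a list median this interval is that of the gene in the middle of the list. It does not measure the counting error of the median itself.

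At least 2 Prox1 UMIs gave shares of members of 0.0489% (sham) and 0.400% (injury) and dentate 3.14 over VGLUT2 nuclei. At least 2 UMIs of Itpka and Neurod2 gave 0% and 0.253%, Slc17a7 with Gad1 in 23.6%, 0.567 Gad2 per Gad1, 1892 genes over VGLUT2 and dentate 3.68. Thinning gave shares of 0.0134% and 0.156%, Slc17a7 in 29.7%, Gad1 in 11.7%, both in 4.14%, 0.348 Gad2 per Gad1, a Gad1 log2 ratio of 4.70, dentate 3.30 and thalamic -1.99. The shares of members were recomputed with a thinned gate, and the other values with the 145 members kept and their UMIs thinned. Without called doublets the Gad1 ratio was 4.87, dentate 3.72 over VGLUT2 and 3.39 over Neurod6, and thalamic -2.33. At least 2 Slc17a6 UMIs in the VGLUT2 class gave dentate 3.32 and thalamic -1.99. All of cluster 20 in place of the members gave 0.446 Gad2 per Gad1, a Gad1 ratio of 2.52, 243 genes over Neurod6, dentate 2.11 and 2.24, and thalamic -2.50. In the subclusters of cluster 20 without members, 120 of 218 nuclei held Neurod6. The Neurod6 class does not leave out cluster 20, so the values over it can compare nuclei with themselves. Equal weight per nucleus gave a Gad1 ratio of 3.70, dentate 3.24 and 3.81, and thalamic -2.01. A prior of 2 UMIs gave dentate 2.61 over Neurod6. No filter on low genes gave 2359 and 2294 genes, and a 4-fold limit 324 and 491.

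TMM scaling lowered ratios by 0.07 over VGLUT2 and 0.24 over Neurod6, gave dentate 3.12 and thalamic -1.97 over VGLUT2, and turned the 669 higher and 562 lower genes over VGLUT2 into 617 and 648 and the 1110 higher and 371 lower genes over Neurod6 into 800 and 590. Over VGLUT2 nuclei lower genes also outnumbered higher ones without called doublets (807 higher, 830 lower), with equal weight per nucleus (725, 745), with at least 2 UMIs of Itpka and Neurod2 (863, 1029), in all of cluster 20 (659, 963), in granule-like members (1073, 1413) and in granule-like nuclei that are not members (1103, 1321), so the balance of calls has no stable direction.

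Alternatives added after seeing the data split the members. Granule-like members alone gave Slc17a7 in 68.75%, 0.0606 Gad2 per Gad1, 2486 genes over VGLUT2, dentate 3.94 and 3.92, and thalamic -3.89. Members outside these subclusters gave Slc17a7 in 43.1%, both genes in 6.15%, 1.70 Gad2 per Gad1, 812 genes, dentate 1.68 and 1.78, and thalamic -1.31. Granule-like nuclei that are not members gave Slc17a7 in 45.5%, Gad1 in 15.8%, both in 7.92%, 0.100 Gad2 per Gad1, 2424 genes, dentate 3.87 and 3.77, and thalamic -4.09 (with genes at 0 set to the floor of 3 UMIs, -2.67, against -3.40 in granule-like members, so the order of these classes depends on how zeros are set). Other than by which nuclei enter, the cause of these shifts was not tested.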
